A study of Mus musculus with 9 samples.

Results

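The genes described are 32 that encode the enzymes of glycolysis, the transporters of glucose and lactate, and members of the cellular response to low oxygen. They form a list of named genes and were looked up by symbol in a table of 51912 genes, where all 32 were found and all 32 passed the filter on low counts. The gene of carbonic anhydrase 9, Ca9, is listed in the annotation under the symbol Car9. Read counts came from cultured mouse fibroblasts of the C57BL/6 strain, grown in DMEM medium with serum, in 3 groups of 3 libraries. Normal fibroblasts (NF) carried a wild-type genotype. Cancer-associated fibroblasts (CAF), the fibroblasts of tumour stroma, were also wild type. Cancer-associated fibroblasts with the genotype beta-catenin -/- formed the last group (bcatKO_CAF). The sources used here give neither the driver of the deletion nor the tumour of origin, the age of the animals or whether a line was 1 clone. No source states whether the 3 libraries of a group were separate cultures, so p-values cover the spread between libraries, which may be technical.

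Glycolysis splits glucose into pyruvate in the cytosol. Glucose enters through facilitative transporters and is trapped by hexokinase. Phosphofructokinase sets the pace, and a chain of later enzymes yields ATP and pyruvate, which lactate dehydrogenase turns into lactate for export with protons by monocarboxylate transporters. When oxygen is low, prolyl hydroxylases no longer mark the transcription factor HIF-1 alpha for destruction, and many genes of glycolysis, acid handling and mitochondrial turnover are switched on. Fibroblasts of tumour stroma are known in other studies to export lactate that cancer cells can use.

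Libraries held 15433810 to 21893574 counts, and 3 counts in a library correspond to 0.137 to 0.194 CPM of the raw total. Levels are given as CPM, the counts of a gene relative to a TMM-scaled library total, and 14314 genes were tested. Ctnnb1, the gene named in the genotype, had 855, 882 and 858 CPM in the 3 CAF libraries, 668, 637 and 627 CPM in bcatKO_CAF, and 713, 799 and 669 CPM in NF. The sources used here do not say which part of the gene was deleted, so this gene-level value does not check the genotype label. Correlated across genes on the log2(CPM + 1) scale, CAF libraries stood apart from NF (r from 0.825 to 0.839) and from bcatKO_CAF (0.824 to 0.846). NF replicate 1 resembled the bcatKO_CAF libraries (0.990 to 0.994) more than the other NF libraries (0.943 to 0.957), so results that rest on it are also given without it. Its highest value, 0.994, was with bcatKO_CAF replicate 3, which correlated at 0.985 and 0.987 with the other bcatKO_CAF libraries. Of 14 fibroblast markers, 12 were at 1 CPM or more in every NF library, 12 in every bcatKO_CAF library and 14 in every CAF library. Their summed level was 7524 to 15813 CPM in NF, 13283 to 17351 in bcatKO_CAF and 50697 to 72317 in CAF. At an edgeR adjusted p under 0.05, 10 of the 14 were higher in CAF than in NF and 0 lower. Over all tested genes, 20.0% were higher and 19.9% lower. Col1a1 averaged 149 CPM in NF, 293 in bcatKO_CAF and 19927 in CAF, while Vim averaged 4712, 5387 and 5246. Thy1, a fibroblast surface marker, was nearly absent from NF and bcatKO_CAF, at no more than 0.634 CPM, against at least 1755 CPM in CAF. Pericyte and smooth muscle markers summed to 6632 to 9198 CPM in CAF, with 7 of 8 at 1 CPM or more in every library. The sum was 161 to 820 in NF and 551 to 1139 in bcatKO_CAF, with 3 of 8 in each and Des at 0 counts in bcatKO_CAF. Most of the CAF sum came from Acta2 and Tagln, at means of 5059 and 2727 CPM. These 2 averaged 3.27 and 0.744 CPM in NF and 6.12 and 0.422 in bcatKO_CAF. Of these 8 markers, 6 were higher and 2, Cspg4 and Rgs5, lower in CAF than in NF, and Cspg4 gave 151 to 803 CPM of the sum in NF and 540 to 1131 CPM in bcatKO_CAF. Leukocyte markers summed to 6.83 to 11.2 CPM in CAF, 36.4 to 54.1 in NF and 23.4 to 33.3 in bcatKO_CAF, with 4, 2 and 2 of 8 at 1 CPM or more, and Cd3e at 0 in NF. In NF and bcatKO_CAF the largest part was Cd68, at a mean of 28.7 and 20.0 CPM against 1.34 in CAF. Ptprc stayed at or below 1.24 CPM in every library. Csf1r averaged 3.39 CPM in CAF, 0.982 in NF and 0.408 in bcatKO_CAF, but 0 leukocyte markers were called higher in CAF than in NF. The 6 skeletal muscle markers summed to 91.7 to 248 CPM in CAF, nearly all from Acta1, and to at most 0.512 CPM elsewhere, with Myf5 at 0 in every group. Epithelial, endothelial and melanocyte markers stayed at or below 16.5 CPM in sum in every library. The part of other cell types in the results that follow was not tested.

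CAF differed from NF in 11 of the 32 genes. Carbonic anhydrase 9 (Ca9), the glucose transporter Slc2a3, hexokinase 1 (Hk1), platelet-type phosphofructokinase (Pfkp), the lactate transporter Slc16a1, the oxygen sensor Egln3 and the hypoxia-induced gene Ankrd37 were lower in CAF. Lactate dehydrogenase B (Ldhb), aldolase C (Aldoc), adrenomedullin (Adm) and Pfkfb3, which makes an activator of phosphofructokinase, were higher. With beta-catenin deficiency, 8 genes were higher than in CAF and 4 lower. The 10 genes called in both comparisons had opposite signs in them, and as CAF libraries are shared by both, this is a description of 1 CAF group set against 2 others. Between bcatKO_CAF and NF none of the 32 was called.

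These counts were near or below those of all genes. Calls were made with edgeR's quasi-likelihood test at an adjusted p under 0.05, over all tested genes. For CAF against NF the 11 genes are 34.4% of the 32, where 39.9% of all tested genes were called (20.0% higher and 19.9% lower). For bcatKO_CAF against CAF the 12 genes are 37.5%, where 44.2% of all genes were called (21.5% higher and 22.7% lower). The median log2 fold change of the 32 was -0.19 for CAF against NF, beside -0.04 over all genes, and 0.09 beside -0.01 for bcatKO_CAF against CAF. The median absolute log2 fold change was 0.62 and 0.70 for the 32 genes, beside 0.55 and 0.61 over all genes. For bcatKO_CAF against NF, where no gene was called, the median log2 fold change of the 32 was -0.32, beside -0.02 over all genes, the median absolute value 0.43, beside 0.26, and 8 of the 32 values were positive. Groups did not overlap in CPM for 12 members (37.5%) in CAF against NF and for 19 (59.4%) in bcatKO_CAF against CAF, beside 48.2% and 65.7% of all tested genes. In bulk libraries, fewer cells of a type and less RNA per cell cannot be told apart. The list held no larger share of changed genes than the transcriptome did, and the account that follows is of single genes and steps.

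**Figure D1:**
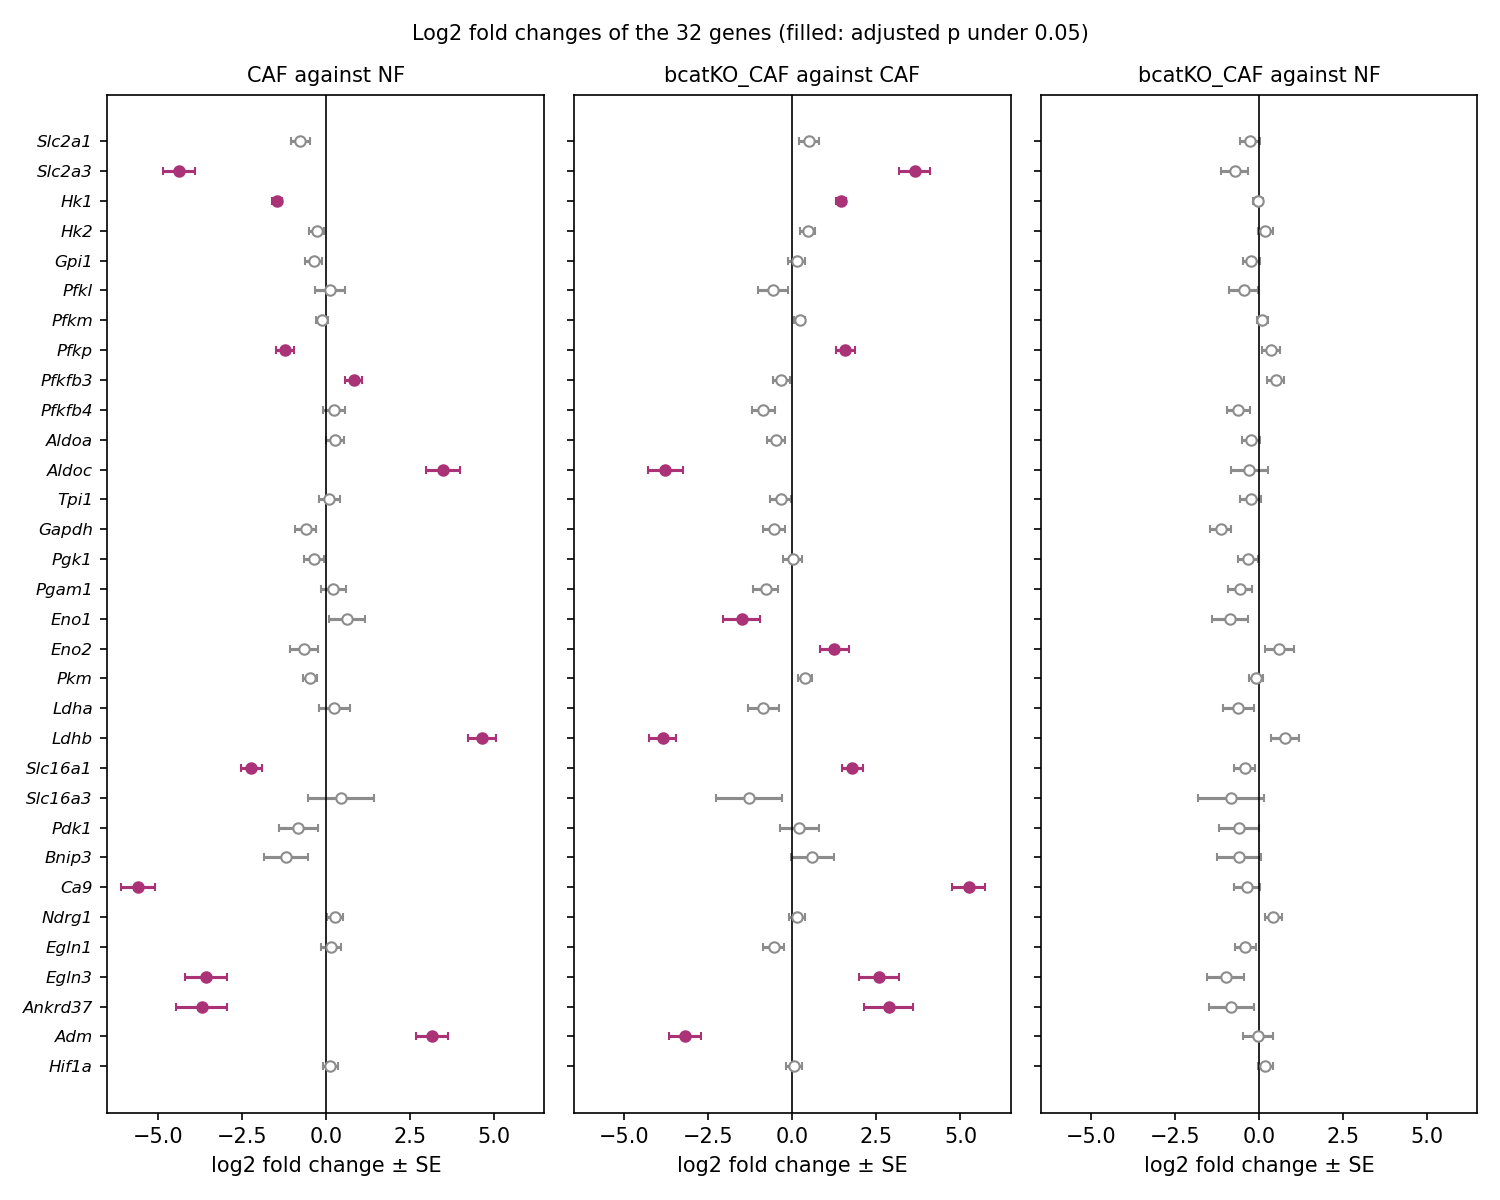
Log2 fold changes (horizontal axis, with the SE from the test) of the 32 genes (vertical axis) in the 3 comparisons; filled points have an edgeR adjusted p under 0.05. Filled points number 11 for CAF against NF and 12 for bcatKO_CAF against CAF, and none is filled for bcatKO_CAF against NF.

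Of both glucose transporters in the list, Slc2a1, the widely expressed GLUT1, had the higher level. Its level was 306, 313 and 470.5 CPM in NF replicates 1 to 3, 219, 288 and 137 in CAF and 349.8, 310.2 and 244 in bcatKO_CAF. All 3 CAF libraries lay below all 3 NF libraries, and CAF overlapped with bcatKO_CAF. The log2 fold change of CAF against NF was -0.76 ± 0.29 (SE, edgeR adjusted p = 0.0604), and it passed the test under 6 of 19 alternative settings (adjusted p = 0.0206 to 0.0489), among them total counts and leaving out NF replicate 1. Slc2a3, the high-affinity transporter GLUT3, was much rarer and changed more. It had 1.46, 1.55 and 2.01 CPM in the CAF libraries, 14.2, 56.7 and 33.4 in NF and 21.3, 23.8 and 18.0 in bcatKO_CAF. Both other groups lay above CAF in every library, by 20.8-fold in NF (log2 fold change of CAF against NF -4.37 ± 0.48, adjusted p = 0.000101) and 12.6-fold in bcatKO_CAF (bcatKO_CAF against CAF 3.64 ± 0.46, adjusted p = 0.000264). Per kilobase of exon, Slc2a3 made up 0.428% ± 0.240 (SD, n = 3) of the summed level of both transporters in CAF, 4.53% ± 3.11 in NF and 3.29% ± 0.384 in bcatKO_CAF.

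Hexokinase, which phosphorylates glucose on entry, differed by paralog. Hk1, on chromosome 10 from 62268855 to 62379908 of GRCm38, was at 156, 179 and 136 CPM in CAF, 412, 418 and 471 in NF and 427, 414 and 435 in bcatKO_CAF. NF and bcatKO_CAF overlapped, and each was above every CAF library. The log2 fold change was -1.46 ± 0.15 for CAF against NF (adjusted p = 6.57e-05) and 1.44 ± 0.15 for bcatKO_CAF against CAF (adjusted p = 7.73e-05). Hk2, the inducible hexokinase often raised in tumours, was at 80.2, 81.4 and 43.5 CPM in CAF, 93.3, 81.3 and 72.8 in NF and 91.8, 89.7 and 99.7 in bcatKO_CAF. CAF replicate 3 was the lowest, and the difference did not pass in either comparison (adjusted p = 0.377 and 0.130). Every bcatKO_CAF library lay above every CAF library, and that difference passed only with total counts as the scaling (adjusted p = 0.0484). Hk2 formed a larger part of the hexokinase level in CAF, 42.3, 39.4 and 31.4% in replicates 1 to 3, against 24.5, 21.8 and 18.1% in NF and 23.5, 23.6 and 24.7% in bcatKO_CAF. These shares are per kilobase of exon and do not depend on library scaling. The difference in share gave an exact two-sided permutation p of 0.1 against each group, the smallest that 3 against 3 allows, and 0.194 adjusted over 33 share comparisons.

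Phosphofructokinase, the pace-setting enzyme, also differed by paralog. Pfkp, encoded on chromosome 13 from 6579768 to 6648777, was at 81.2, 77.7 and 55.5 CPM in CAF, 238, 108 and 154 in NF and 207, 196 and 235 in bcatKO_CAF. CAF lay below both groups without overlap, with log2 fold changes of -1.22 ± 0.27 against NF (adjusted p = 0.00606) and 1.57 ± 0.28 for bcatKO_CAF against CAF (adjusted p = 0.00159). The liver-type gene Pfkl spanned 119.5, 148 and 341 CPM in NF, 209, 292 and 164 in CAF and 189, 175 and 78.7 in bcatKO_CAF. The groups overlapped for Pfkl, and NF varied between libraries more than the groups differed. Pfkm, the muscle-type gene, ranged from 39.9 to 60.1 CPM over all 9 libraries, with adjusted p = 0.635 and 0.340. Pfkp made up 10.4% ± 1.69 (SD, n = 3) of the length-scaled phosphofructokinase level in CAF, 22.8% ± 10.5 in NF and 30.9% ± 9.30 in bcatKO_CAF.

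Pfkfb3 and Pfkfb4 encode enzymes that make and break fructose 2,6-bisphosphate, the activator of phosphofructokinase. Pfkfb3 was at 43.1, 50.5 and 26.9 CPM in CAF, 27.2, 19.6 and 21.2 in NF and 24.5, 34.8 and 36.1 in bcatKO_CAF. CAF replicate 3 fell inside the NF range, and the log2 fold change against NF was 0.83 ± 0.26 (adjusted p = 0.0284). That call was lost under 7 of 19 alternatives (adjusted p = 0.0528 to 0.207), among them leaving out CAF replicate 1 or 2 or NF replicate 2 or 3. Pfkfb4 was low throughout, at 8.52 ± 2.69 CPM in NF, 10.2 ± 2.52 in CAF and 5.58 ± 1.79 in bcatKO_CAF (SD, n = 3). Its adjusted p for bcatKO_CAF against CAF was 0.0627, and 0.0254 without NF replicate 1.

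At the next steps, 3 of the 4 genes in the list did not differ between groups at the threshold. Aldoa, which encodes the main aldolase, was at 459, 555 and 817 CPM in NF, 680.3, 897 and 621 in CAF and 596, 586 and 383 in bcatKO_CAF. Gpi1, glucose phosphate isomerase, was at 366 ± 85.3 in NF, 286 ± 80.5 in CAF and 312 ± 57.5 in bcatKO_CAF, and Tpi1, triose phosphate isomerase, at 349 ± 142, 373 ± 90.7 and 292 ± 71.0. None of these 3 enzymes was called in any comparison (adjusted p from 0.164 to 0.836), and their NF and CAF ranges overlapped. For Aldoa, every bcatKO_CAF library lay below every CAF library. Aldoc, the brain-type aldolase, changed in CAF from a very low level. It was at 4.82, 5.59 and 8.31 CPM in CAF, 0.253, 0.426 and 0.984 in NF and 0.578, 0.259 and 0.520 in bcatKO_CAF. CAF was above both groups in every library, 11.2-fold over NF (log2 fold change 3.49 ± 0.51, adjusted p = 0.000564), or 18.4-fold without NF replicate 3, and bcatKO_CAF was lower by a log2 fold change of -3.78 ± 0.52 (adjusted p = 0.000411). Even in CAF, Aldoc made up only 0.787% ± 0.342 of the length-scaled aldolase level (SD, n = 3).

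The later enzymes need a caution on counting. Gapdh, glyceraldehyde phosphate dehydrogenase, was listed at only 9.95 ± 3.93 CPM in NF, 6.59 ± 0.766 in CAF and 4.50 ± 0.603 in bcatKO_CAF (SD, n = 3). Per kilobase of exon this is 1.60 ± 0.185 CPM in CAF, against 135 ± 32.9 for Tpi1, the enzyme of the step before it. Transcripts of 120 other annotated genes, 117 of them pseudogenes, matched the Gapdh transcript at 90% identity or more over at least 300 bases, and these genes held 22851 counts over all libraries against 1193 for Gapdh. The ratio ran from 765% to 3554% of the Gapdh count between libraries, so the Gapdh values, and the 0.00649 adjusted p for bcatKO_CAF against NF without NF replicate 1, are uncertain. Pgk1 (phosphoglycerate kinase) and Pgam1 (phosphoglycerate mutase) also had low counts, at 32.4 ± 5.02 and 15.5 ± 3.66 CPM in CAF, and have 4 and 3 annotated pseudogene copies at that identity. Their copies held 0.0172% and 1.38% as many counts as the genes themselves. Neither was called between groups, with adjusted p from 0.102 to 0.992, although Pgam1 passed for bcatKO_CAF against CAF without NF replicate 1 (adjusted p = 0.0373) and with only the 6 libraries compared (0.0408). For the remaining members the share was at most 1.64%, in Pkm. How reads matching several places were counted is not given, so a low share does not show that a gene's own counts are complete.

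Both enolase genes of the list differed between bcatKO_CAF and CAF. Eno1, the ubiquitous form, was at 357, 509.5 and 313 CPM in CAF, 179, 174 and 61.4 in bcatKO_CAF and 81.8, 307 and 368 in NF. All bcatKO_CAF libraries lay below all CAF libraries (log2 fold change -1.51 ± 0.55, adjusted p = 0.0494), and NF spanned both, with replicate 1 low. The neuronal form Eno2 went the other way, at 16.2, 20.0 and 22.8 CPM in CAF, 40.5, 42.4 and 57.6 in bcatKO_CAF and 56.8, 20.8 and 15.2 in NF (bcatKO_CAF against CAF 1.25 ± 0.43, adjusted p = 0.0401). Both calls were near the threshold: that of Eno1 was lost under 10 of 19 alternatives (adjusted p = 0.0503 to 0.146) and that of Eno2 under 7 (0.0645 to 0.124), in each case when any 1 library of the comparison was left out. Eno2 formed 20.6, 21.8 and 51.8% of the length-scaled enolase level in bcatKO_CAF replicates 1 to 3, 4.95, 4.30 and 7.70% in CAF and 44.2, 7.18 and 4.51% in NF. The high shares were thus those of bcatKO_CAF replicate 3 and NF replicate 1.

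Pkm, pyruvate kinase, had the highest CPM of the 32 genes per kilobase of exon in NF and bcatKO_CAF, with Aldoa above it in CAF. Its level was 1292, 1355 and 1742 CPM in NF, 984, 1234 and 937 in CAF and 1615, 1381 and 1121 in bcatKO_CAF. CAF lay below NF without overlap, but the log2 fold change of -0.48 ± 0.21 did not pass (adjusted p = 0.101), except with total counts as the scaling (0.0282). Summed over the 16 enzyme genes from hexokinase to lactate dehydrogenase, leaving out Gapdh, the level was 4618 ± 1230 CPM in NF, 4150 ± 830 in CAF and 4018 ± 732 in bcatKO_CAF (SD, n = 3). The groups overlapped in this sum, from 3445 to 5065 in CAF, 3197 to 4602 in bcatKO_CAF and 3598 to 5984 in NF.

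**Figure D2:**
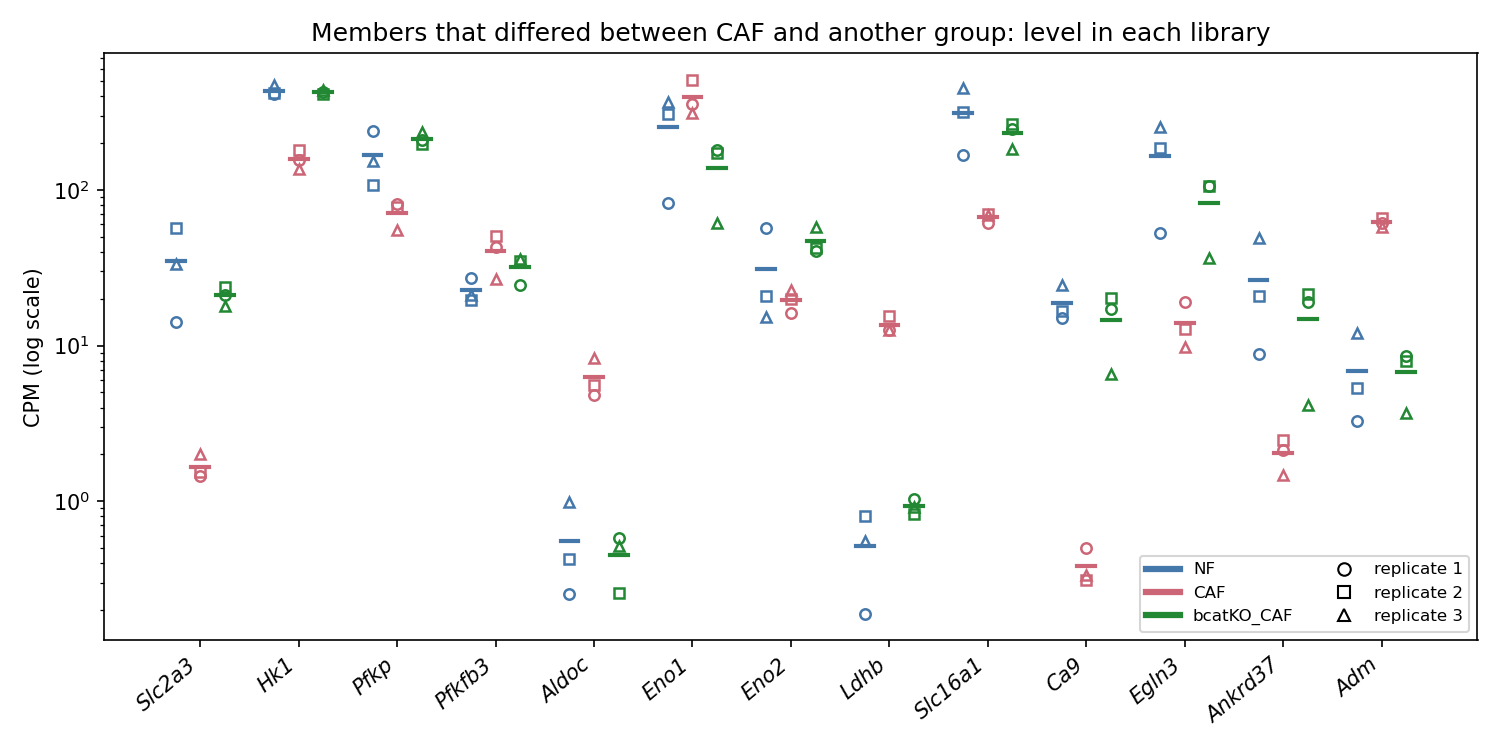
CPM on a log axis in each of the 9 libraries for the 13 genes called in at least 1 comparison; short lines are group means and symbols mark replicates. Slc2a3, Ca9, Egln3 and Ankrd37 sit lowest in CAF, and Aldoc, Ldhb and Adm highest in CAF. On this axis the NF and bcatKO_CAF means of these genes lie nearer to each other than to the CAF mean.

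At the lactate step, Ldha, whose subunit favours lactate formation, was at 236, 529 and 909.9 CPM in NF, 658, 800.3 and 531 in CAF and 452, 437 and 198 in bcatKO_CAF. The bcatKO_CAF libraries were all below CAF, but the log2 fold change of -0.87 ± 0.46 did not pass (adjusted p = 0.155); it passed with only the 6 libraries compared (0.0341) and without NF replicate 1 (0.0485). Ldhb, whose subunit favours the return of lactate to pyruvate, was expressed in CAF alone above 2 CPM. It was at 12.6, 15.5 and 12.6 CPM in CAF, 0.190, 0.810 and 0.554 in NF and 1.03, 0.830 and 0.924 in bcatKO_CAF. Every CAF library exceeded every other library, 26.2-fold over NF (log2 fold change 4.65 ± 0.42, adjusted p = 3.30e-05), and bcatKO_CAF was lower by a log2 fold change of -3.86 ± 0.40 (adjusted p = 7.56e-05). Ldhb, on chromosome 6 from 142490249 to 142507957, still made up only 4.19% ± 0.489 (SD, n = 3) of the length-scaled lactate dehydrogenase level in CAF, against 0.206% ± 0.102 in NF and 0.617% ± 0.313 in bcatKO_CAF.

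Of the lactate transporters, Slc16a1 encodes MCT1, which carries lactate in either direction, and lies on chromosome 3 from 104638668 to 104658462. Its level was 61.1, 70.5 and 69.3 CPM in CAF, 167, 314 and 451 in NF and 246, 265 and 182 in bcatKO_CAF. Both groups lay above CAF without overlap, with log2 fold changes of -2.21 ± 0.32 for CAF against NF (adjusted p = 0.000567) and 1.79 ± 0.32 for bcatKO_CAF against CAF (adjusted p = 0.00175). Slc16a3 encodes MCT4, the exporter of highly glycolytic cells and a known hypoxia target. It was at 163, 261 and 81.0 CPM in CAF, 16.2, 68.3 and 283 in NF and 99.3, 94.9 and 11.3 in bcatKO_CAF. NF overlapped with both other groups, NF replicate 1 and bcatKO_CAF replicate 3 were far below the other libraries of their groups, and no comparison passed (adjusted p = 0.744, 0.313 and 0.706). Within a library, Slc16a3 was the larger part of the pair in CAF replicates 1 and 2 and near an even split in replicate 3, at 68.9, 75.5 and 49.3%, against 7.49, 15.3 and 34.3% in NF and 25.1, 23.0 and 4.90% in bcatKO_CAF. CAF did not overlap with either group in this share (exact two-sided permutation p = 0.1, the smallest possible, and 0.194 adjusted). Pdk1, a kinase that inactivates pyruvate dehydrogenase in mitochondria, was at 36.2, 66.7 and 165 CPM in NF, 57.1, 58.5 and 36.8 in CAF and 85.2, 70.3 and 20.6 in bcatKO_CAF, with overlap and no call (adjusted p = 0.308 and 0.797).

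**Figure D3:**
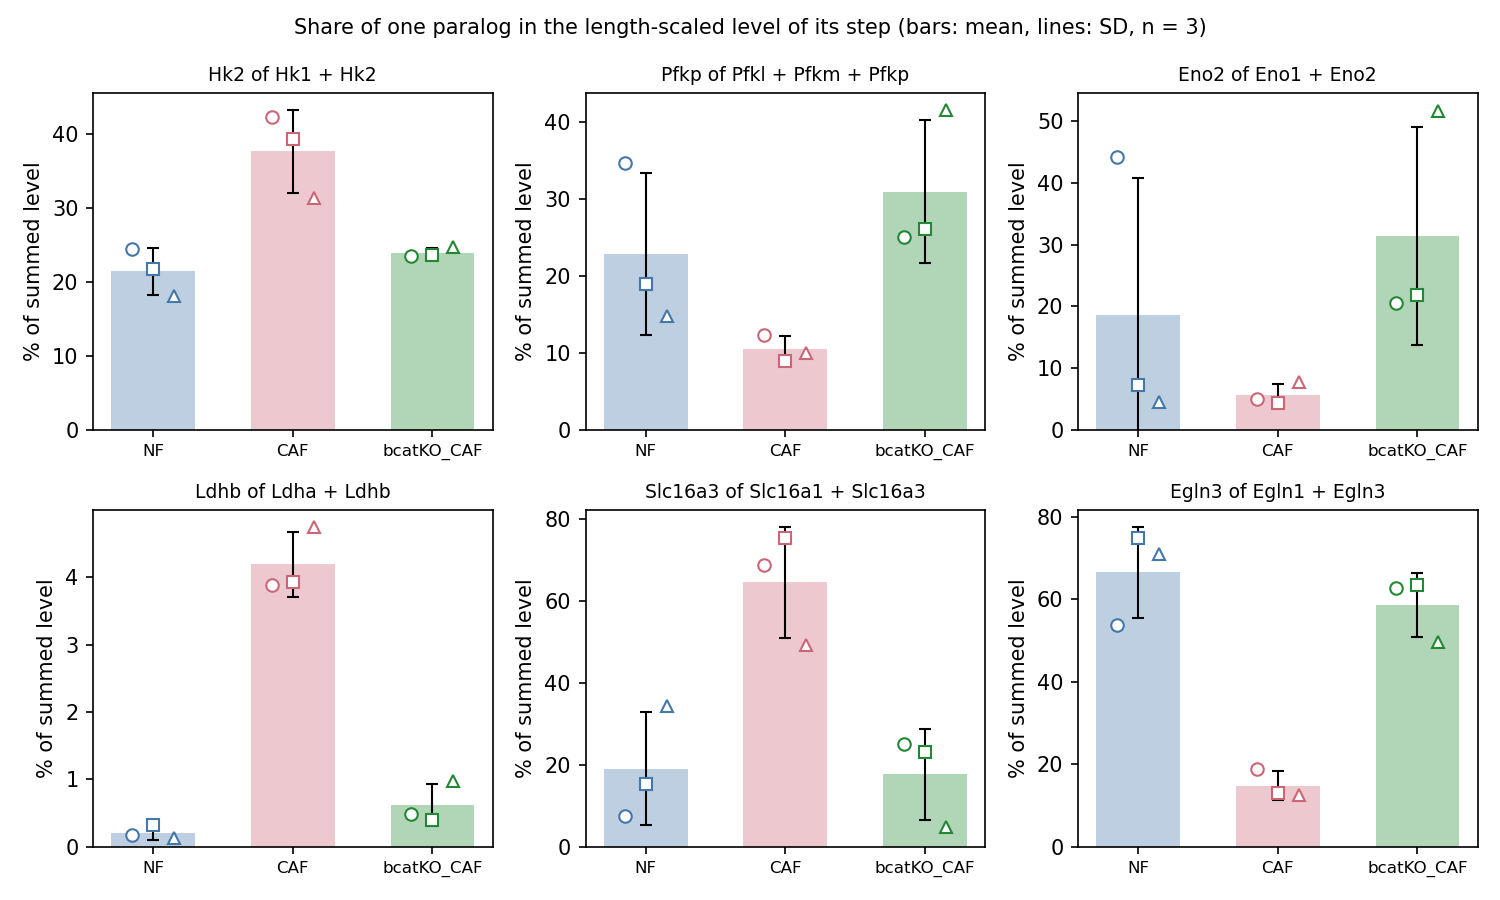
Share of 1 paralog (vertical axis, percent) in the summed length-scaled level of its step, per library (points), with group means (bars) and SD (lines, n = 3). CAF libraries lie above both other groups for Hk2, Ldhb and Slc16a3 and below them for Pfkp and Egln3, while Eno2 is high in NF replicate 1 and bcatKO_CAF replicate 3.

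Hif1a, the oxygen-regulated factor itself, was at 448, 247 and 365 CPM in NF, 458, 397 and 311 in CAF and 435, 392 and 378 in bcatKO_CAF. The groups overlapped, and no comparison passed (adjusted p = 0.674, 0.883 and 0.723). HIF-1 alpha is controlled mostly through its protein, which counts of RNA do not measure. Of the prolyl hydroxylases that mark it, Egln1 (PHD2) was at 95.9 ± 40.9 CPM in NF, 107 ± 12.9 in CAF and 72.1 ± 19.5 in bcatKO_CAF, with no call (adjusted p = 0.725 and 0.162; 0.0421 for the second with only the 6 libraries compared). Egln3 (PHD3), itself induced by hypoxia, was at 19.1, 12.8 and 9.74 CPM in CAF, 53.0, 187 and 255 in NF and 105, 106 and 36.3 in bcatKO_CAF. CAF was below both groups in every library, by a log2 fold change of -3.57 ± 0.62 against NF (adjusted p = 0.00152), while bcatKO_CAF was above CAF by 2.57 ± 0.59 (adjusted p = 0.00686). Egln3 formed 14.8% ± 3.59 (SD, n = 3) of the length-scaled level of both hydroxylases in CAF, 66.5% ± 11.2 in NF and 58.6% ± 7.77 in bcatKO_CAF.

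Genes known to be induced by hypoxia did not move as a block. Ca9, a cell-surface carbonic anhydrase that handles acid, showed the largest change of the 32, on chromosome 4 from 43506966 to 43513729. It was at 0.504, 0.311 and 0.334 CPM in CAF, 15.1, 16.6 and 24.5 in NF and 17.1, 20.2 and 6.52 in bcatKO_CAF. It was 48.9-fold higher in NF (CAF against NF -5.60 ± 0.51, adjusted p = 3.43e-05) and 38.2-fold higher in bcatKO_CAF (5.24 ± 0.50, adjusted p = 5.02e-05) than in CAF, where its counts came to 6 to 9 per library. Ankrd37, an ankyrin repeat gene, was at 2.13, 2.49 and 1.48 CPM in CAF, 8.87, 20.9 and 49.4 in NF and 19.0, 21.5 and 4.16 in bcatKO_CAF. No CAF library reached any library of the other groups, with log2 fold changes of -3.70 ± 0.75 (adjusted p = 0.00359) for CAF against NF, -2.88 without NF replicate 3, and 2.87 ± 0.73 (adjusted p = 0.0110) for bcatKO_CAF against CAF, a call lost with limma-voom (0.0605). Adm, the precursor of the vasodilator adrenomedullin, went the opposite way, at 61.0, 66.1 and 58.1 CPM in CAF, 3.29, 5.33 and 12.1 in NF and 8.55, 7.99 and 3.69 in bcatKO_CAF. CAF stood 8.95-fold above NF (log2 fold change 3.16 ± 0.47, adjusted p = 0.000604), or 14.3-fold without NF replicate 3, and bcatKO_CAF was lower than CAF by a log2 fold change of -3.19 ± 0.47 (adjusted p = 0.000578). Bnip3, a receptor for the removal of mitochondria, was at 15.8, 20.3 and 80.3 CPM in NF, 19.5, 20.1 and 11.4 in CAF and 36.5, 30.6 and 9.76 in bcatKO_CAF, and Ndrg1, a stress-response gene, at 103 ± 31.9, 125 ± 23.6 and 138 ± 19.1 (SD, n = 3). Neither was called (adjusted p from 0.177 to 0.686), and the ranges of the groups overlapped for both.

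HIF complexes bind DNA at a short core, and the promoters of 4 hypoxia genes that moved in CAF are shown to place it in both directions of change. The sequences are RefSeq promoters on GRCm38.p6 from 250 bases before to 50 after the RefSeq start, 5′ to 3′ on the strand of the gene. Capitals mark ACGTG or GCGTG on either strand (CACGT or CACGC on the strand shown). Ca9 is read at chr4:43506776-43507075 (plus strand), Ankrd37 at chr8:45999801-46000100 (minus), Egln3 at chr12:54203825-54204124 (minus) and Adm at chr7:110627407-110627706 (plus).
Ca9: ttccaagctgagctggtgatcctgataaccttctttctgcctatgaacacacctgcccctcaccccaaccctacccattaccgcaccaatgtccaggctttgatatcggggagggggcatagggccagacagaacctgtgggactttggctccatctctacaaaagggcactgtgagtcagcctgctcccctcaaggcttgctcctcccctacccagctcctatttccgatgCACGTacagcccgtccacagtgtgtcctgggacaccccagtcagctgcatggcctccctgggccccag
Ankrd37: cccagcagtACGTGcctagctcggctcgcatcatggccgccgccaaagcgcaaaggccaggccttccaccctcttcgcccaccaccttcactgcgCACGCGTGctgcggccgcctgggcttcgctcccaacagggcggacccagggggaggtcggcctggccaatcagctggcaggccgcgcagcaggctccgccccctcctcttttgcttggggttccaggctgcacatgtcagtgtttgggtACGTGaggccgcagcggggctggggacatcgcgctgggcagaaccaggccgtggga
Egln3: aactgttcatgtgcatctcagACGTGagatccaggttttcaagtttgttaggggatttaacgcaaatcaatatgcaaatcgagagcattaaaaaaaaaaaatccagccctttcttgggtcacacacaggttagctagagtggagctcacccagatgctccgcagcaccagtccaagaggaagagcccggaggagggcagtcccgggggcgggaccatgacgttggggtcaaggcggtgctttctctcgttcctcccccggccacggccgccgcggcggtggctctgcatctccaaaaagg
Adm: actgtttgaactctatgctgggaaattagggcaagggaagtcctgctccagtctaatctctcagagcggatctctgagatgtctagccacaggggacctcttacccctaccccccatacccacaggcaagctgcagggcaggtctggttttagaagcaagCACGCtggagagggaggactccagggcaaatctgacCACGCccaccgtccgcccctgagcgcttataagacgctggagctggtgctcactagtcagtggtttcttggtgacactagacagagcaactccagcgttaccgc
Counting overlapping matches once, Ca9 held 1 match, Ankrd37 3, Egln3 1 and Adm 2. The RefSeq start of Ankrd37 lies 5857 bases from the start of the gene in GENCODE, those of the other 3 genes 4 to 60 bases. These 4 genes were picked to show the core; of all members called for CAF against NF with a promoter, 4 of 4 higher and 5 of 6 lower ones held it, Hk1 being without a match. Promoters were matched for 30 of the 32 genes, and 24 of these (80.0%) held at least 1 match, against 63.3% of 10405 promoters of tested genes. A match describes the letters in the window and not binding.

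Across the libraries of 1 group most of the genes varied together. Of the 32 genes, 25 were lowest in NF replicate 1 among the NF libraries, beside 41.2% of all tested genes, and 21 were highest in NF replicate 3, beside 29.0%. In bcatKO_CAF, 24 were lowest in replicate 3, beside 37.7% of all genes. Others went the opposite way, with 7 highest in NF replicate 1 and 6 in bcatKO_CAF replicate 3, beside 40.2% and 38.3% of all genes. In CAF, 23 were lowest in replicate 3 and 23 highest in replicate 2, beside 30.3% and 38.7%. With total counts as the scaling, a check chosen after seeing the data, the counts of lowest genes were 25, 24 and 22 in these libraries. The median ratio of the highest to the lowest library of a group, after adding 0.5 CPM, was 2.20 in NF, 1.49 in CAF and 1.51 in bcatKO_CAF for the 32 genes, against 1.55, 1.31 and 1.24 over all tested genes. No test was made of this pattern.

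Slc16a3 had the widest range of the 32 genes within each group. The mean of its other NF libraries was 10.8-fold that of NF replicate 1, and the mean of its other bcatKO_CAF libraries 8.62-fold that of replicate 3. For Ankrd37 the same ratios were 3.96 and 4.86, for Bnip3 3.17 and 3.44, for Pdk1 3.20 and 3.77, and for Eno1 4.12 and 2.87. Hif1a, by contrast, was highest in NF replicate 1 among the NF libraries, and Hk1 ranged only from 412 to 471 CPM in NF and from 414 to 435 in bcatKO_CAF. Gm42418, a transcript overlapping ribosomal RNA, accounted for 3.17% of counts in NF replicate 1 and 1.01% in bcatKO_CAF replicate 3, within the range of 1.01% to 5.34% over all libraries. Genes of the mitochondrial genome summed to 12932, 12636 and 6950 CPM in NF replicates 1 to 3 and to 10064, 10145 and 11845 CPM in bcatKO_CAF. Only 7 of these 13 genes were at 1 CPM or more in every library of each group. As mt-Nd4l, mt-Co2 and mt-Atp8 had no counts in any group, the sum covers only part of the mitochondrial genes. NF replicate 1 and bcatKO_CAF replicate 3 had the highest mitochondrial sum of their groups, and CAF replicate 3, at 7274 CPM, the lowest; the part of RNA quality or culture in this spread was not tested.

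**Figure D4:**
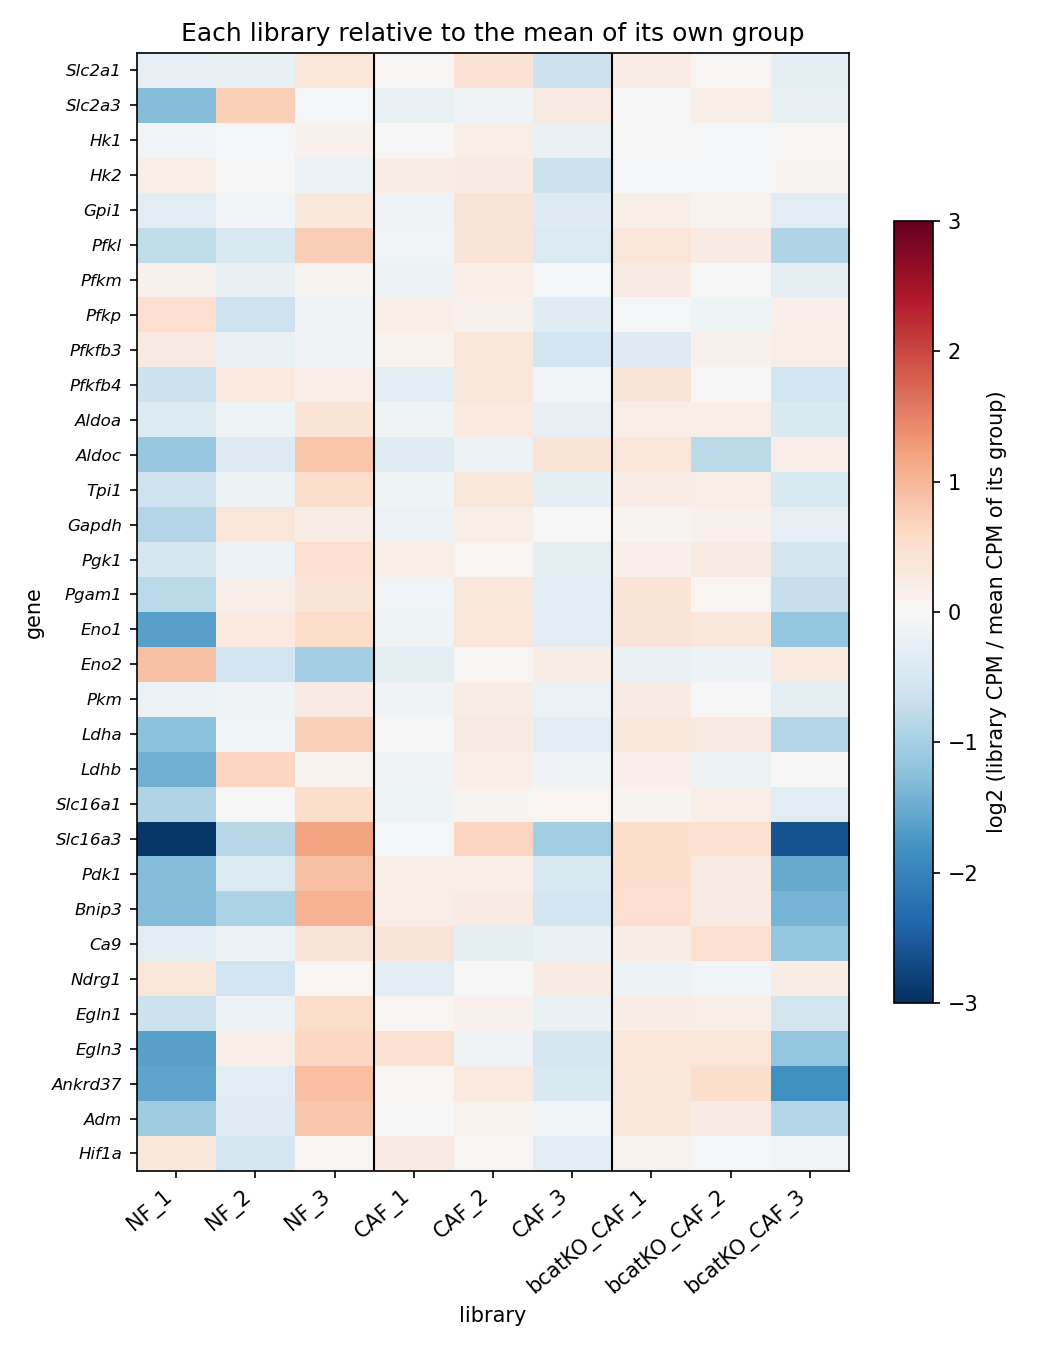
Log2 ratio of each library (columns) to the mean of its own group for the 32 genes (rows); blue is below and red above the group mean. NF replicate 1 and bcatKO_CAF replicate 3 are blue for most genes, most deeply for Slc16a3. NF replicate 3 is red for most genes, but blue for Eno2 (-1.02).

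Between bcatKO_CAF and NF, no member differed at the threshold (edgeR adjusted p from 0.601 to 0.988), where 0.0% of all tested genes were called. At an unadjusted p under 0.05, 1 of the 32 passed, Gapdh, whose counts are uncertain, and 4.9% of all genes did. Groups did not overlap for 2 members (6.25%), Gapdh and Ldhb, beside 6.87% of all genes. DESeq2 and limma-voom called 0 of the 32 as well. The result rests on NF replicate 1. Without it, 6 members were called, beside 18.0% of all genes (11.0% higher and 7.04% lower in bcatKO_CAF). Higher were Pfkp (log2 fold change 0.71, adjusted p = 0.0448) and Eno2 (1.39, 0.00879). Lower were Slc2a3 (-1.09, 0.0190), Slc16a1 (-0.71, 0.0389), Egln3 (-1.40, 0.0487) and Gapdh (-1.43, 0.00649). With all libraries the log2 fold changes of the first 5 were 0.35, 0.60, -0.73, -0.43 and -0.999, with the same signs. For each of the 6 genes, bcatKO_CAF replicate 3 was the library of its group furthest in the direction of the call. Egln3 was at 36.3 CPM in it, against 105 and 106 in replicates 1 and 2, and Slc16a1 at 182 against 246 and 265. A fit without both this library and NF replicate 1 was not made.

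Leaving out NF replicate 1 also changed the comparison of bcatKO_CAF with CAF, since 1 estimate of spread serves all groups in the fit. The genes called lower went from 4 to 8, with Pfkfb4, Gapdh, Pgam1 and Ldha added, beside 27.5% of all genes called lower, 26.0% higher and 53.4% in either direction without that library. With only the 6 libraries of the comparison, 8 were also called lower, here with Pfkfb4, Pgam1, Ldha and Egln1 added, beside 29.0% of all genes called lower, 27.8% higher and 56.9% in either direction in that fit. The 8 genes called higher stayed 8 in both. For CAF against NF without NF replicate 1, 4 genes were higher and 9 lower, beside 45.0% of all genes in either direction (23.9% higher and 21.2% lower), with Slc2a1 (0.0431) and Gapdh (0.00809) added.

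The counts for other lists are to be read against all tested genes, of which 20.0% were higher and 19.9% lower in CAF than in NF, and 21.5% higher and 22.7% lower in bcatKO_CAF than in CAF. Other genes of sugar and lactate transport were higher in CAF in 7 of 13 tested cases and lower in 0 (16 listed), with a median log2 fold change of 1.88. Slc2a10, a transporter of the endomembrane system, had 25.5 ± 3.20 CPM in CAF against 2.62 ± 2.14 in NF (SD, n = 3), and embigin (Emb), a chaperone of monocarboxylate transporters, had 64.0 ± 16.3 and 10.2 ± 5.90. In bcatKO_CAF against CAF, 8 of the 13 were lower and 0 higher, with Emb at 6.28 ± 2.86 CPM (log2 fold change -3.35 ± 0.49, adjusted p = 0.000540). Of 9 tested glycolysis enzymes outside the 32, 2 were higher and 1 lower in CAF than in NF (2 lower without NF replicate 1 or 2 or any 1 bcatKO_CAF library), and 1 was higher and 4 lower in bcatKO_CAF than in CAF, with 1 to 2 higher and 2 to 6 lower over the alternatives (6 lower without NF replicate 1). Eno3, the muscle enolase, was at 11.6 ± 2.76 CPM in NF, 31.5 ± 5.54 in CAF and 11.4 ± 1.37 in bcatKO_CAF, and Bpgm, which makes 2,3-bisphosphoglycerate, at 19.4 ± 3.03, 40.8 ± 4.60 and 15.4 ± 4.47.

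Of genes that govern the entry and use of pyruvate in mitochondria, 5 of 13 were higher and 4 lower in CAF than in NF, and 4 higher and 5 lower in bcatKO_CAF than in CAF. Over the alternatives these counts ranged from 4 to 7, 2 to 5, 2 to 4 and 4 to 5. Pdp1, a phosphatase that activates pyruvate dehydrogenase, was at 12.4 ± 2.15 CPM in CAF, 65.4 ± 27.9 in NF and 60.9 ± 10.4 in bcatKO_CAF. Pdk3, a kinase that inactivates it, was at 57.8 ± 4.25 in CAF, 24.6 ± 6.68 in NF and 21.7 ± 2.66 in bcatKO_CAF, and pyruvate carboxylase (Pcx) at 41.5 ± 10.4, 10.8 ± 4.51 and 15.3 ± 2.96. The log2 fold changes of CAF against NF were -2.40 ± 0.30, 1.23 ± 0.20 and 1.94 ± 0.31 (adjusted p = 0.000221, 0.00106 and 0.000937). Among other genes of oxygen sensing, 2 of 13 were higher in CAF than in NF and 4 lower, with 2 lower without CAF replicate 1 or 2; in bcatKO_CAF against CAF, 2 were higher and 4 lower, with 1 lower without CAF replicate 3 or any 1 bcatKO_CAF library. Epas1, which encodes HIF-2 alpha, was at 12.1 ± 1.55 CPM in CAF, 34.1 ± 18.3 in NF and 21.8 ± 4.78 in bcatKO_CAF (CAF against NF -1.50 ± 0.39, adjusted p = 0.0124, and 0.0511 without CAF replicate 1). Arnt, the partner of both HIF factors, was at 103 ± 5.78, 62.6 ± 12.1 and 72.8 ± 2.16, higher in CAF by 0.72 ± 0.15 (adjusted p = 0.00483).

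Of 41 further genes known to respond to hypoxia, 5 were higher and 9 lower in CAF than in NF (11 higher without NF replicate 3), with a median log2 fold change of -0.10, and 9 were higher and 6 lower in bcatKO_CAF than in CAF (14 and 12 with only the 6 libraries compared, and 3 lower without CAF replicate 2 or 3 or bcatKO_CAF replicate 1 or 3). P4ha2, a collagen prolyl hydroxylase, had 222 ± 60.5 CPM in CAF, 52.9 ± 14.4 in NF and 53.9 ± 8.60 in bcatKO_CAF, and Ddit4, an inhibitor of mTORC1, had 149.9 ± 26.9, 61.2 ± 26.4 and 47.6 ± 10.0. Both were higher in CAF than in the other groups. The metallothionein Mt2 was at 38.2 ± 10.1 CPM in CAF, 964 ± 743 in NF and 627 ± 219 in bcatKO_CAF, the oxidoreductase Ero1l at 102 ± 6.96, 402 ± 256 and 586 ± 63.2, and Gbe1, the glycogen branching enzyme, at 11.7 ± 2.94, 67.9 ± 13.5 and 60.7 ± 5.74. These were lower in CAF, with log2 fold changes against NF of -4.66 ± 0.62, -1.98 ± 0.42 and -2.53 ± 0.22 (adjusted p = 0.000311, 0.00443 and 2.95e-05). The shares called for CAF against NF, 5 and 9 of 41, stand beside 20.0% and 19.9% of all genes.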

How the data were processed

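Total RNA of 9 cultured mouse fibroblast samples was read by Illumina sequencing, per the labels. The authors deposited raw counts of reads for each Ensembl gene, the same in the series table and the sample files (0 cells differed). The submitters' processing notes name TopHat, bcl2fastq, edgeR and the build mm10. The sources used here name no counter, strand setting or annotation, so reads of overlapping antisense genes (Gm12454 for Ca9, Ufsp2 and Lrp2bp for Ankrd37, Pitrm1 for Pfkp, Hk1os for Hk1) cannot be told apart from those of the gene. Symbols were matched for 51633 of 51912 genes, and coordinates and exon lengths came from GENCODE release M21 (GRCm38, the assembly behind mm10).

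The quasi-likelihood test of edgeR 4.0.16 (R 4.3.3) was fitted to all 9 libraries after filterByExpr and TMM, with no term but group. Benjamini-Hochberg adjustment ran over the 14314 tested genes, and an adjusted p under 0.05 was a call. Standard errors came from the F statistic, and fold values are ratios of mean CPM. Paralog shares used CPM per kilobase of exon, with exact permutation tests. Copies were sought with minimap2 2.31. Alternatives were RLE, upper quartile and total-count scaling, removal of Gm42418, DESeq2 1.42.0, limma-voom (limma 3.58.1), no filter, a minimum of 1 CPM in 3 samples, fits of only the 6 samples compared, glmTreat at 1.5-fold, and omission of each library. No libraries agreed within sampling noise (chi-square per gene at least 19.6). On simulated counts with 200 changed genes, the fit called 21 to 24% of genes changed by 1 on the log2 scale. It called 68 to 73% of those changed by 2, so a gene that was not called may still differ. In the data, 39.9% and 44.2% of genes were called in the CAF comparisons, a far larger share than was changed in the simulation. The adjustment depends on that share, so these rates do not give the recovery in those comparisons.

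The members and lists were chosen with earlier results of these data known. All 32 members are reported; of other lists, up to 4 called genes per direction and comparison with mean CPM of at least 5 and the largest log2 fold change could be named, and some of these genes are not reported here. Floors cover counting error only.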

Additional observations from a re-analysis of the deposited data

How the results depend on the processing

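No call among the 32 genes reversed under the 19 alternatives. Of 1823 values of single genes, 25 lost and 24 gained a call, and 45 that were not called changed sign. Total counts moved the median log2 fold change of all genes from -0.04 to -0.20 for CAF against NF and from -0.01 to 0.12 for bcatKO_CAF against CAF; members were then 3 higher and 9 lower, and 9 higher and 3 lower, and all genes for CAF against NF 2440 higher and 3701 lower, beside 2866 and 2847. With the test beyond 1.5-fold, genes lower in CAF than NF numbered 1618, and those of bcatKO_CAF against CAF 1769 higher and 2060 lower. With only the 6 samples compared, 8 members were lower in bcatKO_CAF than CAF, in place of 4. For bcatKO_CAF against NF, 1 gene was higher without a filter and 6 with DESeq2. Leaving out 1 library each, members lower in bcatKO_CAF than CAF ranged from 3 to 8, and for bcatKO_CAF against NF members higher from 0 to 2 and lower from 0 to 4, and all genes higher from 0 to 1620 and lower from 0 to 1039; the highest values are those without NF replicate 1. Of 231 alternative values of paralog share differences, 12 changed sign. No share difference could be called in any setting, as the smallest exact permutation p that 3 against 3 libraries allow is 0.1. No paired analysis was possible because the labels give no replicate number that groups share. Depth limits the rarest members, Ca9, Aldoc and Ldhb, whose lowest levels lie near the floor of 3 counts.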

Other observations

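Genes of neighbouring pathways are given beside all tested genes, of which 20.0% were higher and 19.9% lower in CAF than in NF, and 21.5% higher and 22.7% lower in bcatKO_CAF than in CAF. Of 10 pentose phosphate genes, 2 were higher and 2 lower in CAF than in NF, and 3 were higher and 1 lower in bcatKO_CAF than in CAF. Over the 19 alternatives these counts ranged from 1 to 2, 0 to 3, 0 to 4 and 1 to 2. H6pd, a glucose 6-phosphate dehydrogenase of the endoplasmic reticulum, was at 159 ± 34.6 CPM in CAF, 39.9 ± 3.19 in NF and 41.9 ± 5.16 in bcatKO_CAF (SD, n = 3), higher than in NF (edgeR adjusted p = 3.59e-05). Taldo1, transaldolase, was at 102 ± 11.8 in CAF and 183 ± 53.8 in NF (-0.84 ± 0.21, adjusted p = 0.0108).

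Of 20 citric acid cycle genes, 3 were higher and 1 lower in CAF than in NF, and 2 were higher and 5 lower in bcatKO_CAF than in CAF, with ranges over the alternatives of 2 to 4, 0 to 2, 0 to 2 and 2 to 8. Idh1, the cytosolic isocitrate dehydrogenase, was at 292 ± 70.7 CPM in CAF, 53.5 ± 23.4 in NF and 53.3 ± 8.88 in bcatKO_CAF (CAF against NF 2.45 ± 0.32, adjusted p = 0.000302), and Aco1, the cytosolic aconitase, at 102 ± 6.75, 53.5 ± 3.32 and 52.3 ± 4.47. Of 3 tested gluconeogenesis genes, G6pc3 and Slc37a4 were lower in CAF than in NF (-0.94 ± 0.17 and -0.91 ± 0.23, adjusted p = 0.00168 and 0.0125), and Pck2, the mitochondrial phosphoenolpyruvate carboxykinase, was higher (1.74 ± 0.52, adjusted p = 0.0239). The call of Slc37a4 was lost without CAF replicate 1 (0.0518), and that of Pck2 under 5 alternatives (0.0556 to 0.0742), among them leaving out CAF replicate 2 or 3 or NF replicate 3.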
